A study of Mus musculus with 6 samples.

Results

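The 37 genes described here are imprinted in the mouse: a single parental copy is active, in all tissues or in some. They were taken from a list of gene symbols, and each was read from the array feature that names that gene and no other. Of the 37, 31 were measured in this way, among 19938 genes measured in all. Snrpn, Gnas and Ube3a sit only on features naming several genes and were not analysed here, and no feature in the table used named H19, Kcnq1ot1 or Zrsr1. Each of the 31 had 1 feature, so no choice between features was needed.

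The series put CD1 mouse embryos, an outbred stock, into cavities of 2 diameters on embryonic day 5.0, shortly after implantation. Culture lasted 8 hours in narrow cavities of 90 µm or wide cavities of 180 µm, and the question was how embryos with and without an external mechanical cue differ. Each cavity had 3 samples, and each sample was a pool of 30 whole embryos, called narrow 1, 2 and 3 or wide 1, 2 and 3 by the numbers of the titles. All 6 pools had been cultured. No uncultured pool was analysed here, so the levels given are those after culture. Total RNA was measured on Affymetrix mouse Gene 1.0 ST arrays, and the deposited values are log2 signals, on which a step of 1 is a doubling.

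Genomic imprinting rests on DNA methylation placed in the egg or sperm at imprinting control regions, which survives the loss of methylation after fertilization. Zfp57 and Trim28 bind the methylated copy and protect it, and Dnmt1 with Uhrf1 copies the mark at each cell division. Many imprinted genes lie in clusters and act on growth: as a tendency, genes active on the paternal copy promote growth of embryo and placenta, and genes active on the maternal copy restrain it. In extraembryonic tissue some genes are imprinted by repressive histone marks in place of DNA methylation. An array signal sums both parental copies, so it cannot show which copy was active.

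Array medians lay between 7.62 and 7.67, and across genes the lowest correlation between arrays was 0.998, where genes are not independent replicates. For 66.4% of all genes, the gap between the 2 arrays numbered 1 and the other 4 was larger than the gap between the cavities. The first gap sets 2 arrays against 4 and the second 3 against 3, so their spreads are not alike. The same share was not computed for the other numbers. Values with the arrays numbered 2 and 3 only are therefore given beside the results that turn on them. The mean signal of 10 epiblast markers lay between 11.05 and 11.12 in narrow and between 11.11 and 11.16 in wide pools. That of 10 markers of extraembryonic ectoderm lay between 11.26 and 11.32 in narrow pools and at 11.32 in all 3 wide pools. For 12 markers of visceral endoderm the ranges were 11.78 to 11.81 and 11.75 to 11.80, and for 10 markers of maternal decidua and stroma 7.17 to 7.23 and 7.15 to 7.19. Markers of parietal endoderm (6 measured) had means of 10.70 to 10.73 in narrow and 10.64 to 10.70 in wide pools, those of trophoblast giant cells and ectoplacental cone (6 of 10 measured) 7.85 to 8.00 and 7.88 to 7.91, and those of blood cells (10) 6.69 to 6.78 and 6.75 to 6.90. The tissues named on the label, those of the whole embryo, had bright markers in every pool for epiblast, extraembryonic ectoderm and both endoderms, while the trophoblast giant cell and ectoplacental cone list was dimmer, with 2 of its 6 measured genes below the median of the olfactory and vomeronasal receptor genes. The array gives no measure of a true zero, so whether traces of decidua were present was not tested.

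At this stage most of the imprinted genes gave a clear signal. As a yardstick, 1194 olfactory and vomeronasal receptor genes, which work in sensory neurons, had a median signal of 5.35 and a 95th percentile of 6.74. Of the 31 imprinted genes, 29 lay above 6.74, a share of 93.5% against 71.7% of all genes. Nap1l5 and Mkrn3 lay below it, and Asb4 (6.75) and Usp29 (6.78) lay just above. Since probes differ in brightness, these figures describe how dim a signal was, and signals were not ranked between genes.

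**Figure D1:**
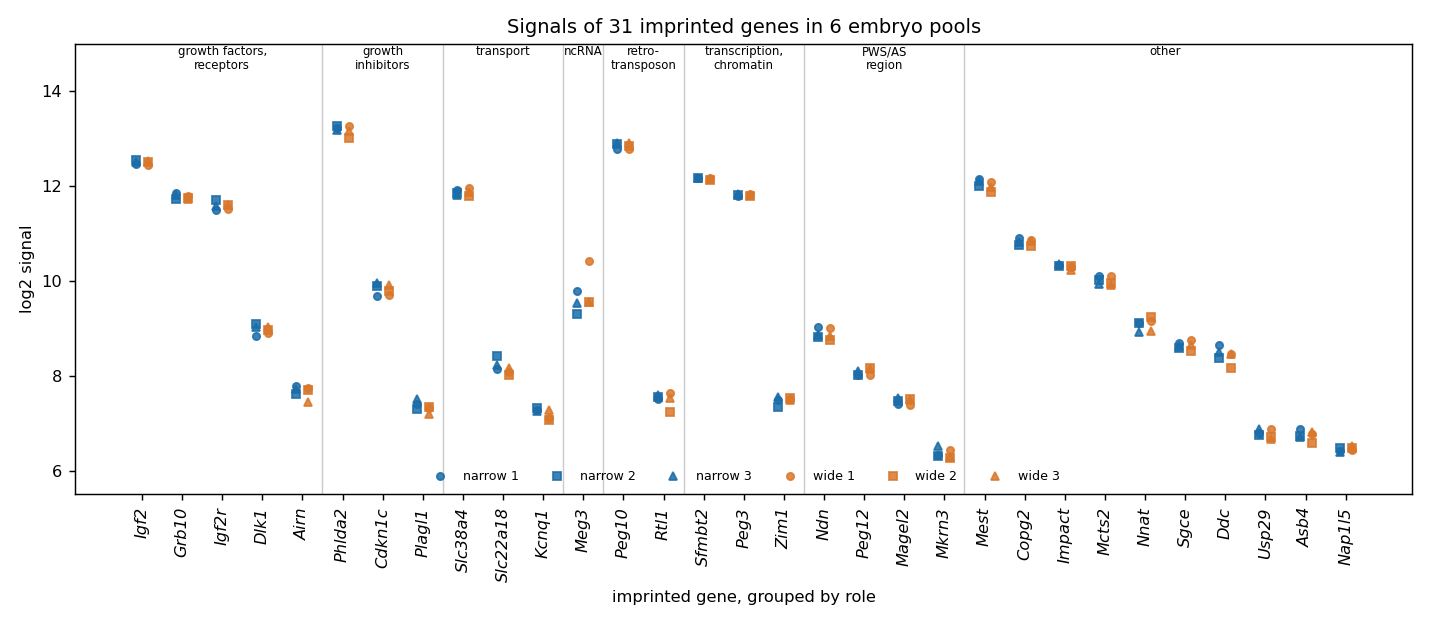
Log2 signal (vertical axis) of the 31 measured imprinted genes, grouped by role, in 3 narrow pools (blue) and 3 wide pools (orange); circles, squares and triangles are the arrays numbered 1, 2 and 3. The 6 points of most genes lie close together, and Meg3 has the widest spread, 1.10 from lowest to highest, with wide 1 at the top.

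No difference between the cavities was called for any of the 31 imprinted genes. With limma and Benjamini-Hochberg adjustment over all 19938 genes, 0 of 31 passed an adjusted p of 0.05, and the share called over all genes was 0% as well. The smallest adjusted p of any gene was 1.00. At an unadjusted p under 0.05, limma gave 1 member higher in narrow cavities, Slc22a18, against 1.68% of all genes, and 0 members lower, against 1.72% of all genes. In either direction that is 1 of 31, against 3.4% of all genes. A test per gene with unequal variances gave 0 members higher and 0 lower at that unadjusted level, against 251 higher and 226 lower of all 19938 genes. For 0 of 31 genes did all 3 narrow pools lie above all 3 wide pools, and for 0 did all lie below, where all genes showed these orders in 4.17% and 3.54% of cases. In bulk RNA, fewer cells of a type and less RNA per cell cannot be told apart, for these differences or any below.

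The intervals bound how large a change could have been at this number of arrays. The 95% interval of the limma fit without a block stayed within 1.25-fold in either direction for 28 of 31 genes. The exceptions were Meg3, Ddc and Slc22a18. It stayed within 1.5-fold for 30 of 31, all except Meg3. Of all 19938 genes, 19201 stayed within 1.25-fold and 19892 within 1.5-fold, larger shares than among the members. The members' differences (narrow minus wide, on the log2 scale) were positive for 24 genes and negative for 7, with a median of 0.026. Over all genes 50.9% were positive and the median was 0.0011. The members' median moved with single pools, to 0.0104 without wide 2 and to 0.0562 without wide 1, and it was 0.0398 with the arrays numbered 2 and 3 only. Wide 2 was the lowest of the 6 arrays for 13 of the 31 genes, or 41.9%, against 18.4% of all genes, and its part in the positive median was not tested beyond leaving it out.

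**Figure D2:**
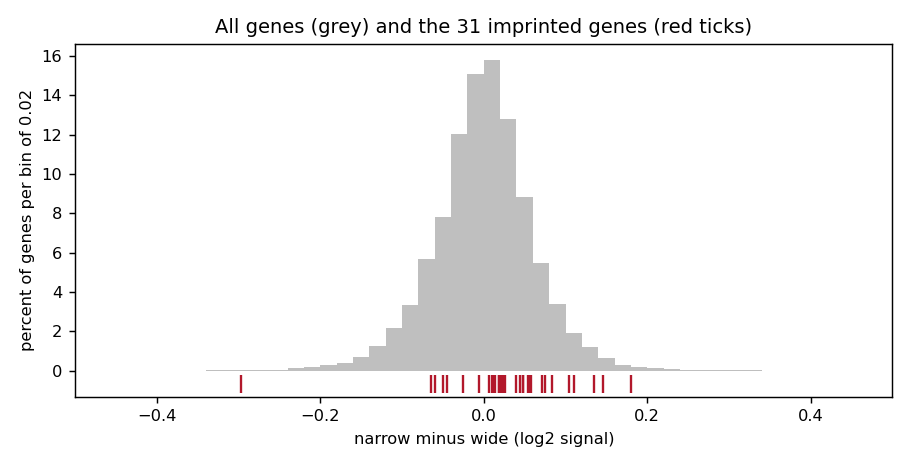
Percent of all 19938 genes in each bin of 0.02 of the difference narrow minus wide (log2 signal, horizontal axis; grey), with a red tick below the axis for each of the 31 imprinted genes; genes beyond 0.5 in either direction are not drawn. Most ticks lie just right of 0, inside the bulk of all genes, and the tick farthest left is Meg3 at -0.30.

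By the allele usually active, the 20 measured genes of the paternal copy had 15 positive differences and a median of 0.022, and the 9 measured genes of the maternal copy had 7 positive and a median of 0.047. Among the maternal ones 1 of 9 had an unadjusted p under 0.05 in limma, and among the paternal ones 0 of 20, where 3.4% of all genes did. Both medians were positive. The difference between the classes was not tested.

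**Figure D3:**
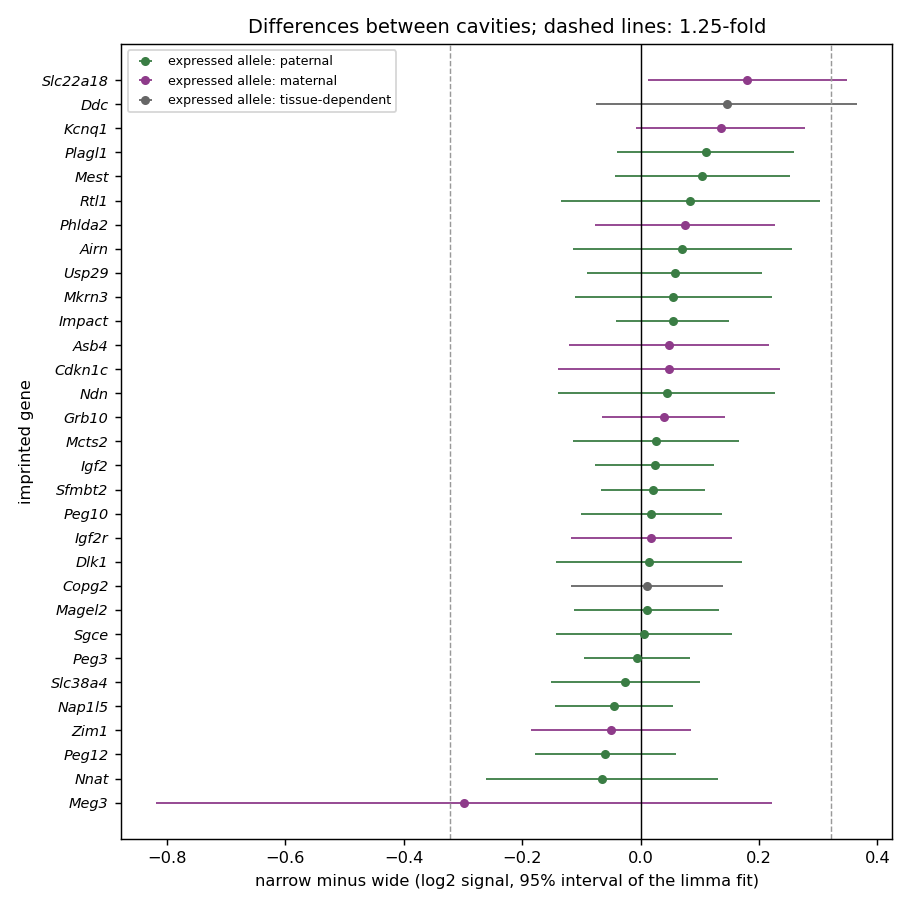
Difference narrow minus wide (log2 signal, horizontal axis) of each imprinted gene with its 95% interval from the limma fit, coloured by the allele usually active; dashed lines mark 1.25-fold in either direction. In this fit, which has no block, the interval of Slc22a18, from 0.01 to 0.35, alone leaves out 0, before adjustment for the number of genes tested. That of Meg3, from -0.82 to 0.22, is the widest. With the replicate number as a block (not drawn), the intervals of Meg3, Mest and Ddc leave out 0. That of Slc22a18, from -0.0015 to 0.36, then includes it.

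The group of growth factors and receptors here also holds the antisense transcript Airn and the adaptor Grb10. The differences of its 5 measured genes ran from 0.01 to 0.07 on the log2 scale, the largest being that of Airn. Igf2, a fetal growth factor of the insulin family, had signals of 12.48, 12.56 and 12.52 in narrow 1 to 3 and of 12.45, 12.50 and 12.53 in wide 1 to 3. The groups overlapped, and the 6 values spanned 0.11. The fold change was 1.02, with a 95% interval from 0.948 to 1.09. Igf2r, the receptor that carries Igf2 to the lysosome, gave 11.50, 11.71 and 11.59 in narrow and 11.53, 11.61 and 11.60 in wide pools, a difference of 0.02 ± 0.06 (SE, n = 3 pools each). Here narrow 2 was the highest and narrow 1 the lowest of all, so the narrow pools enclosed the wide ones. Airn, the antisense transcript that silences Igf2r on the paternal copy, had a difference of 0.07 ± 0.08, with signals from 7.61 to 7.78 in narrow and from 7.46 to 7.74 in wide pools. Airn overlaps Igf2r on the other strand, and the sources used here do not say whether its feature keeps the strands apart.

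Grb10, an adaptor that dampens signalling from the insulin and Igf1 receptors, gave 11.85, 11.74 and 11.81 in narrow and 11.80, 11.75 and 11.74 in wide pools. Narrow 1 was highest and the groups overlapped. Its difference was 0.04 ± 0.04, with an interval from -0.06 to 0.14. Dlk1, a membrane ligand related to those of Notch, gave 8.84, 9.08 and 9.03 in narrow and 8.91, 8.96 and 9.04 in wide pools, a difference of 0.01 ± 0.07. Both arrays numbered 1 were the lowest of their group for Dlk1, and the groups overlapped.

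The wider Igf pathway also held no gene that passed. Of 28 listed genes for ligands, receptors, binding proteins and adaptors, 25 were measured, with 0 passing the adjusted threshold in limma. At an unadjusted p under 0.05, limma gave 1 of 25 higher and 0 lower, against 1.68% and 1.72% of all genes, 12 differences were positive and the median was -0.0024. The 1 higher was Irs4, an adaptor of the insulin receptor family, with 10.72, 10.76 and 10.75 in narrow and 10.56, 10.61 and 10.67 in wide pools. The narrow pools lay above the wide ones for Irs4, by 0.13 ± 0.04 (limma, unadjusted p = 0.0187, adjusted p = 1.00). The adaptor Shc1 had a difference of 0.06 ± 0.04, Igfbp5 of -0.07 ± 0.05 and Igfbp4 of -0.06 ± 0.05, both of these being secreted Igf-binding proteins. The receptor Igf1r had 0.07 ± 0.08, its ligand Igf1 -0.06 ± 0.07, and Igf2bp1, which binds Igf2 mRNA, 0.02 ± 0.04.

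The 3 growth inhibitors all had positive differences that did not pass. Cdkn1c, an inhibitor of cyclin-dependent kinases, gave 9.69, 9.89 and 9.96 in narrow and 9.70, 9.79 and 9.91 in wide pools. The arrays numbered 1 were lowest in both cavities and those numbered 3 highest, while the cavities differed by 0.05 ± 0.08. Phlda2, a restraint on placental growth, gave 13.22, 13.26 and 13.18 in narrow and 13.26, 13.01 and 13.17 in wide pools. Wide 2 alone was low for Phlda2, and the difference was 0.07 ± 0.07 with an interval from -0.08 to 0.23. Plagl1, a zinc finger factor that binds at other imprinted genes, gave 7.41, 7.30 and 7.50 in narrow and 7.33, 7.35 and 7.20 in wide pools. The groups overlapped for Plagl1 too, with a difference of 0.11 ± 0.06 (limma, unadjusted p = 0.127).

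Slc22a18, an organic cation transporter active on the maternal copy, had the smallest unadjusted p of the 31. Its signals were 8.15, 8.41 and 8.23 in narrow 1 to 3 and 8.08, 8.01 and 8.16 in wide 1 to 3. Narrow 2 was the highest pool, and narrow 1 lay just below wide 3, so the groups overlapped by this 1 pair. The group means were 8.26 ± 0.14 in narrow and 8.08 ± 0.07 in wide pools (SD, n = 3 each), a 1.13-fold difference. On the log2 scale it was 0.18 ± 0.07 (SE; limma, unadjusted p = 0.0387, adjusted p = 1.00), and narrow was above wide in 3 of 3 same-numbered pairs. The difference was 0.105 without narrow 2 and 0.237 without narrow 1. With the arrays numbered 2 and 3 only it was also 0.237 (limma, unadjusted p = 0.0326, adjusted p = 0.974).

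Slc22a18 lies in the cluster with Igf2, Kcnq1, Cdkn1c and Phlda2, whose 5 measured genes all had positive differences, with a median of 0.074. Kcnq1, a voltage-gated potassium channel, gave 7.27, 7.33 and 7.25 in narrow and 7.10, 7.07 and 7.28 in wide pools. Wide 1 and wide 2 were low, wide 3 lay among the narrow pools, and the difference was 0.14 ± 0.06 (limma, unadjusted p = 0.0604). Of the whole stretch from H19 to Osbpl5, in the order of genes in the RefSeq table, 21 of 37 genes were measured, and 13 of these 21 had positive differences with a median of 0.024. Slc38a4, an amino acid transporter of trophoblast and liver on another chromosome, had signals from 11.81 to 11.91 in narrow and from 11.80 to 11.97 in wide pools, and a difference of -0.03 ± 0.05.

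**Figure D4:**
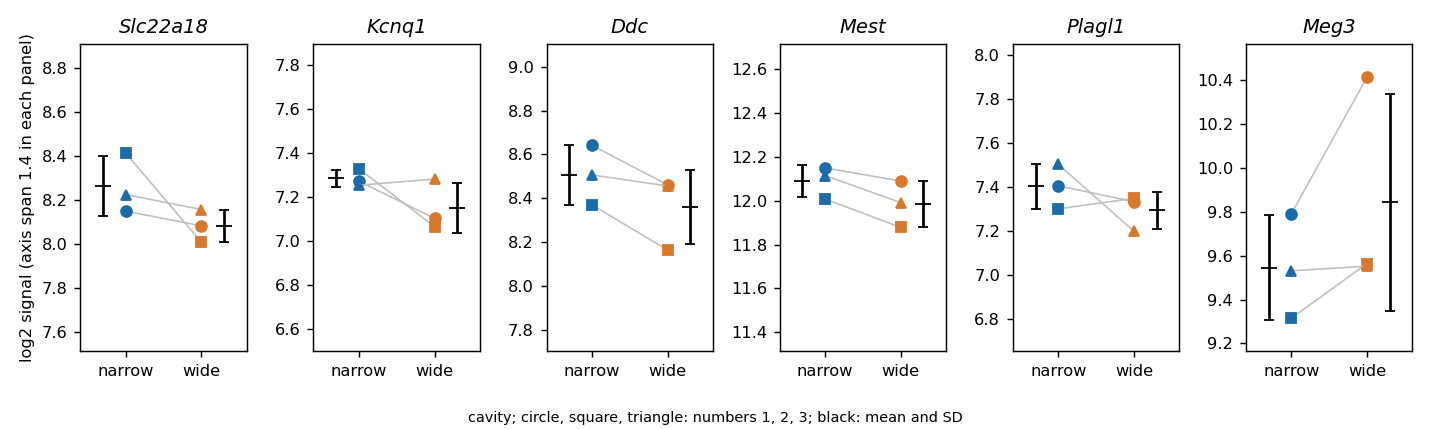
Log2 signal (vertical axis, the same span of 1.4 in each panel) of 6 imprinted genes in narrow (blue) and wide (orange) pools; circles, squares and triangles are the arrays numbered 1, 2 and 3, grey lines join the same number, and black bars give the mean and SD. The lines fall from narrow to wide in 3 of 3 pairs for Slc22a18, Ddc and Mest and rise in 3 of 3 pairs for Meg3, while the pools of the cavities overlap in every panel.

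Meg3, a long non-coding RNA active on the maternal copy, was the most variable of the 31. Its signals were 9.79, 9.32 and 9.53 in narrow 1 to 3 and 10.41, 9.56 and 9.55 in wide 1 to 3. Wide 1 stood far above the other 5 pools, narrow 1 was the next highest, and the groups overlapped. The residual SD of Meg3 was at the 99.9th percentile of all genes. Its difference between the cavities was -0.30 ± 0.23, or 0.814-fold with a 95% interval from 0.567 to 1.17 (limma, unadjusted p = 0.224, adjusted p = 1.00). Without wide 1 the difference was -0.0126, without wide 3 it was -0.443, and with the arrays numbered 2 and 3 only it was -0.135. Its size thus depended on wide 1. With the replicate number as a block, the difference had an SE of 0.11 (limma, unadjusted p = 0.0334, adjusted p = 0.674).

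Meg3 heads a stretch of the maternal copy that runs between Dlk1 and Dio3 and carries many non-coding RNAs, among them a large group of microRNAs. In a microRNA, the seed, bases 2 to 8, is the main stretch that pairs with target messages. After the values of Meg3 were seen, the other genes of this stretch were read too: 48 of 103 RefSeq genes were measured, of which 45 were non-coding (40 microRNA genes, Meg3, Rian and 3 small nucleolar RNA genes) and 3 coding (Dlk1, Rtl1 and Dio3). The 4 microRNA genes whose arrays numbered 1 lay farthest above the rest, Mir377, Mir382, Mir127 and Mir369, have these mature sequences in RefSeq (GRCm38.p6), 5′ to 3′, with the seed in capitals.
mmu-miR-377-5p: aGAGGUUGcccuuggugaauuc
mmu-miR-377-3p: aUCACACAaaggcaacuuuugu
mmu-miR-382-5p: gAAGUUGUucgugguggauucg
mmu-miR-382-3p: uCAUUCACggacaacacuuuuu
mmu-miR-127-5p: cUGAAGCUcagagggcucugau
mmu-miR-127-3p: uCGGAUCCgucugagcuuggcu
mmu-miR-369-5p: aGAUCGACcguguuauauucgc
mmu-miR-369-3p: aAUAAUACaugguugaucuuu

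Across the 40 microRNA genes there were 76 mature sequences with 74 different seeds, so the measured microRNA genes of the stretch mostly do not share a seed. The 2 seeds found more than once pair miR-379-3p with miR-411-3p and miR-376b-5p with miR-376c-5p, shown here because they are the exceptions, with the seed in capitals.
mmu-miR-379-3p: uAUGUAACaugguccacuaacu
mmu-miR-411-3p: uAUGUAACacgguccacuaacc
mmu-miR-376b-5p: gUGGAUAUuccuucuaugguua
mmu-miR-376c-5p: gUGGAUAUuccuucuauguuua

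The non-coding RNAs of this stretch were high in wide 1 together with Meg3. Meg3 itself prompted the look and is left out of these counts. Wide 1 was the highest of the 6 arrays for 35 of the other 44, or 79.5%, against 16.7% of 251 other microRNA genes and 14.3% of all genes. Wide 1 and narrow 1 were the top pair of arrays for 20 of the 44, or 45.5%, against 11.2% of the other microRNA genes and 12.2% of all genes. These are counts over neighbouring genes in the same pools, chosen after Meg3 was seen, and carry no test. Wide 1 exceeded the mean of wide 2 and wide 3 by a median of 0.216 over the 44. It did so by more than 0.3 for 16 of them, or 36.4%, against 5.98% of the other microRNA genes and 0.642% of all genes. The pattern did not hold throughout: Mir431 and Mir666 were lower in wide 1 than in the other wide pools, with gaps of -0.16 and -0.27.

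Many of these signals were dim: 23 of the 44 lay at or below the receptor yardstick of 6.74, as did 68.5% of the other microRNA genes and 28.3% of all genes. Mir377, with a mean of 6.70 just below it, gave 7.16, 6.25 and 6.31 in narrow and 7.58, 6.48 and 6.44 in wide pools. Both arrays numbered 1 stood above the other 4, and the cavities differed by -0.26 ± 0.34 without a block. Narrow lay below wide in 3 of 3 pairs, and with the block the SE was 0.06 (limma, unadjusted p = 0.0055, adjusted p = 0.674). Mir382 gave 8.57, 7.90 and 7.98 in narrow and 8.81, 8.38 and 8.21 in wide pools. Here too the arrays numbered 1 were the top pair, with a difference between cavities of -0.32 ± 0.20 without a block. Narrow was again below wide in 3 of 3 pairs, and the blocked SE was 0.06 (limma, unadjusted p = 0.0018, adjusted p = 0.636). Mir127, whose transcript runs antisense to Rtl1, gave 8.26, 7.99 and 7.88 in narrow and 8.71, 7.96 and 7.90 in wide pools. Rian, the other measured long non-coding RNA of the stretch, gave 7.79, 7.54 and 7.71 in narrow and 7.97, 7.68 and 7.49 in wide pools. The arrays numbered 1 were again the top pair for Rian, and the difference was -0.03 ± 0.12. The sources used here do not say whether a feature named for a microRNA gene read its host transcript, its precursor or the mature form.

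**Figure D5:**
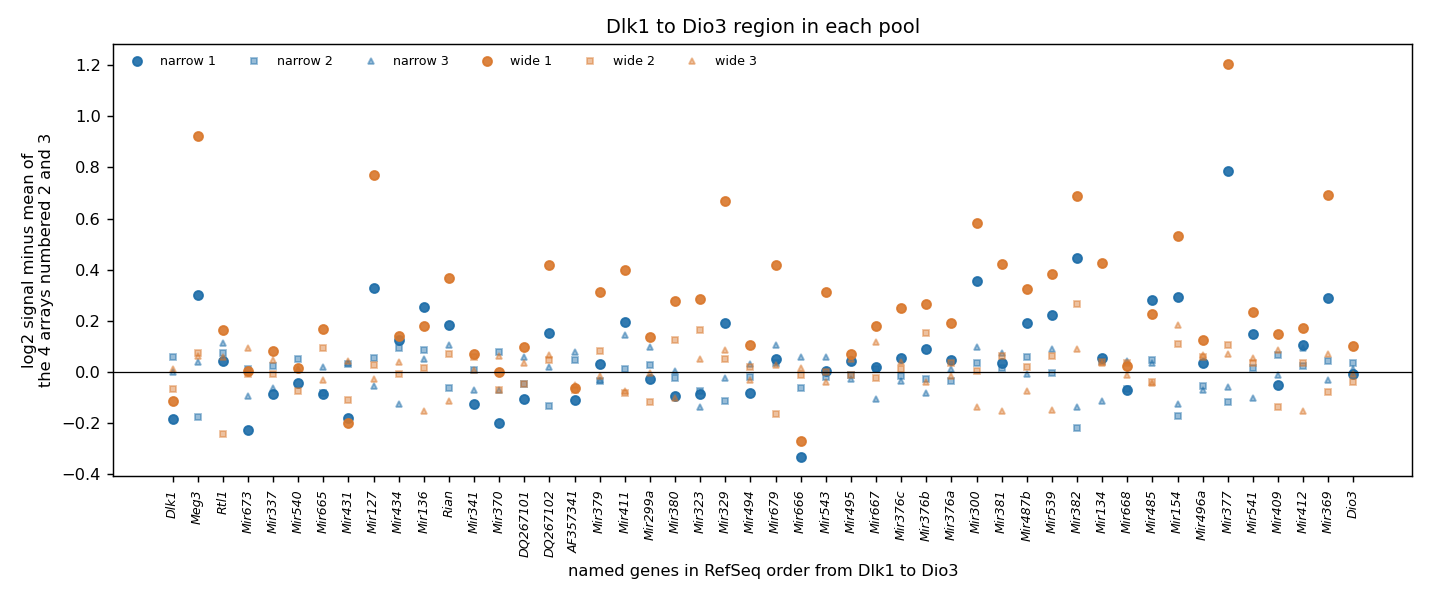
Log2 signal minus the mean of the 4 arrays numbered 2 and 3 (vertical axis) for the measured genes from Dlk1 to Dio3 in RefSeq order, in each narrow pool (blue) and wide pool (orange); circles are the arrays numbered 1, squares 2 and triangles 3. Large orange circles (wide 1) lie on top for 36 of the 45 non-coding genes, with Mir377 and Meg3 the farthest up, and the circles of Dlk1 and Dio3 lie near or below 0.1.

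Of the 3 coding genes of the stretch, wide 1 was the highest array for 2, Rtl1 and Dio3, and the arrays numbered 1 were the top pair for 0. Dlk1 (values above) was low in both arrays numbered 1. Rtl1, a gene derived from a retrotransposon that is needed in placental capillaries, gave 7.52, 7.55 and 7.59 in narrow and 7.64, 7.23 and 7.54 in wide pools. Wide 1 was the highest for Rtl1, and wide 2 the lowest, with a difference of 0.08 ± 0.09. Dio3, an enzyme that inactivates thyroid hormone, gave 6.51, 6.55 and 6.53 in narrow and 6.62, 6.48 and 6.51 in wide pools. Wide 1 lay above the mean of the other wide pools by 0.26 for Rtl1 and by 0.13 for Dio3. Whether the coding genes differ from the non-coding ones was not tested. Among the 8 other measured members active on the maternal copy, wide 1 was highest for 0, where it was highest for 14.3% of all genes.

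Between the cavities, 34 of the 44 non-coding RNAs other than Meg3 had negative differences, or 77.3%, against 62.9% of the other microRNA genes and 49.1% of all genes. Their median was -0.066, and -0.011 with the arrays numbered 2 and 3 only. With limma, 0 of 44 passed the adjusted threshold. At an unadjusted p under 0.05, 2 were lower in narrow cavities, Mir323 and Mir496a, a share of 4.55% against 3.98% of the other microRNA genes and 1.72% of all genes.

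With the replicate number as a block, 0 of 44 passed the adjusted threshold either, with a smallest adjusted p of 0.630. At an unadjusted p under 0.05 the blocked limma fit gave 9 of 44 lower in narrow cavities, or 20.5%. The share lower was 9.56% of the other microRNA genes and 3.72% of all genes. Higher in narrow cavities was 1 of 44, Mir136, or 2.27%, against 1.99% of the other microRNA genes and 3.54% of all genes. Among the 9 were Mir154, Mir323, Mir382, Mir377 and Mir329. Narrow lay below wide in 3 of 3 pairs for 13 of the 44, or 29.5%, against 18.7% of the other microRNA genes and 13.9% of all genes. These neighbouring genes were chosen after values were seen, so the counts are a description. Beside the high values of the arrays numbered 1, the mean of the epiblast markers was highest in wide 1, at 11.16, and was 11.09 in narrow 1, and Xist, the RNA that silences an X chromosome in female cells, gave 11.13, 10.52 and 11.04 in narrow and 11.50, 11.03 and 11.06 in wide pools. Zfp57 was highest in the arrays numbered 1 as well, at 10.47 in narrow 1 and 10.57 in wide 1 against 10.13 to 10.36 in the others. The part of these in the level of Meg3 was not tested.

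Peg10, a gene derived from a retrotransposon that the placenta requires, ran from 12.79 to 12.92 in narrow and from 12.78 to 12.91 in wide pools. Its difference of 0.02 ± 0.05 was positive in 3 of 3 pairs but small against the spread between numbers. Among the factors of transcription and chromatin, Peg3, a zinc finger protein, gave 11.79, 11.81 and 11.83 in narrow and 11.83, 11.80 and 11.81 in wide pools. All 6 lay within 0.05 of each other, and the difference was -0.01 ± 0.04 with an interval from -0.09 to 0.08. Sfmbt2, a Polycomb protein of extraembryonic tissue imprinted by histone marks, was as steady, with signals from 12.12 to 12.17 and a difference of 0.02 ± 0.04. The residual SDs of Peg3 and Sfmbt2 were at the 2.94th and 2.30th percentiles of all genes. Zim1, a zinc finger gene of the Peg3 cluster, had a difference of -0.05 ± 0.06, and Usp29, a deubiquitinase gene of the same cluster, gave 6.79, 6.75 and 6.88 in narrow and 6.87, 6.70 and 6.67 in wide pools, which overlapped.

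The region linked in humans to the Prader-Willi and Angelman syndromes held 4 measured genes, and 3 had positive differences. Ndn, a MAGE family protein, gave 9.04, 8.83 and 8.86 in narrow and 9.01, 8.75 and 8.84 in wide pools. The arrays numbered 1 were the top pair for Ndn, and the difference of 0.04 ± 0.08 was positive in 3 of 3 pairs. Magel2, a related protein that acts on ubiquitin ligases, had a difference of 0.01 ± 0.05, and the ubiquitin ligase Mkrn3, a dim signal, had 0.06 ± 0.07. Peg12, related to the Frat inhibitors of Gsk3, gave 8.02, 8.02 and 8.10 in narrow and 8.02, 8.16 and 8.14 in wide pools. Wide 2 and wide 3 were high and wide 1 lay with the narrow pools, with a difference of -0.06 ± 0.05.

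Among the remaining genes, Mest and Ddc were higher in narrow cavities in 3 of 3 pairs. Mest, of the alpha/beta hydrolase fold family and a much used marker of the paternal copy, gave 12.15, 12.01 and 12.11 in narrow and 12.09, 11.88 and 11.99 in wide pools. In each cavity number 1 was highest and number 2 lowest, and the groups overlapped. The difference was 0.10 ± 0.06 without a block (limma, unadjusted p = 0.142) and 0.10 ± 0.04 when pools were blocked by number (limma, unadjusted p = 0.0282, adjusted p = 0.674). Ddc, the aromatic amino acid decarboxylase next to Grb10, gave 8.64, 8.37 and 8.51 in narrow and 8.46, 8.16 and 8.46 in wide pools. Number 2 was again lowest in both cavities. Its difference of 0.15 ± 0.10 without a block (limma, unadjusted p = 0.167) had an SE of 0.04 with it (limma, unadjusted p = 0.0164, adjusted p = 0.674). Without wide 2 the unblocked difference was 0.0502 for Mest (limma, unadjusted p = 0.448) and 0.0474 for Ddc (limma, unadjusted p = 0.573). That fit kept narrow 2, which was also low. It therefore cannot show how far the paired differences rested on wide 2. In the pairs numbered 1 and 3, narrow minus wide was 0.060 and 0.123 for Mest and 0.180 and 0.051 for Ddc.

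With the block, 0 of 31 genes passed the adjusted threshold, and the smallest adjusted p of any gene was 0.0838. At an unadjusted p under 0.05 the blocked limma fit gave 2 members higher, Mest and Ddc, against 3.54% of all genes, and 1 lower, Meg3, against 3.72% of all genes. Slc22a18 then had an unadjusted p of 0.0513 in limma. In 3 of 3 same-numbered pairs, narrow was above wide for 5 members, Slc22a18, Mest, Ddc, Ndn and Peg10, a share of 16.1% against 14.8% of all genes, and below it for 2, Meg3 and Nnat, or 6.45% against 13.9% of all genes.

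The promoters of Mest, Plagl1, Copg2 and Mcts2 are shown for the sequence that recruits the protector of imprints. Zfp57 recognises TGCCGC when its CpG is methylated. The 250 bases before each RefSeq start were searched for TGCCGC and its complement GCGGCA, and for GCCATNTT, a motif of the factor Yy1, on both strands. For 30 of the 37 genes RefSeq gave 48 such windows. TGCCGC or its complement was in 8 of 48 windows, or 16.7%, against 8.68% of all 32851 windows. Windows of a gene can overlap, and those of Mest nearly coincide. Counted per gene it was 7 of 30, or 23.3%, against 9.84% of 27025 genes. GCCATNTT was in 3 windows, or 6.25%, against 3.91%. The median window of an imprinted gene held 8 CpGs, and the median of all windows 6. The 4 genes with the most matches, ties going to the window with more CpGs, are printed 5′ to 3′ on the strand of the gene, with the matches in capitals: Mest (GRCm38.p6, chr6:30737800-30738049, plus strand) with 2 matches, Mcts2 (chr2:152686898-152687147, plus strand), Copg2 (chr6:30896795-30897044, minus strand) and Plagl1 (chr10:13090582-13090831, plus strand) with 1 each.
Mest promoter: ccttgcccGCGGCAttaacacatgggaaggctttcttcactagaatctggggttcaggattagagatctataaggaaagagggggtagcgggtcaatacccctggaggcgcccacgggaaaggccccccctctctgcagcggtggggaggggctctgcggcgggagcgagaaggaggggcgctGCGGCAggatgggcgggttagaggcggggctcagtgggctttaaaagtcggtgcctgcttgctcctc
Mcts2 promoter: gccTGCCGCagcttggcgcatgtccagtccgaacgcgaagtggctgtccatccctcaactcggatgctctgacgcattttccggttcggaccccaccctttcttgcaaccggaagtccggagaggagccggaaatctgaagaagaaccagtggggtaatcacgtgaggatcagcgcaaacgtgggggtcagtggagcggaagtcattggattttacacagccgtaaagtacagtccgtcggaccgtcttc
Copg2 promoter: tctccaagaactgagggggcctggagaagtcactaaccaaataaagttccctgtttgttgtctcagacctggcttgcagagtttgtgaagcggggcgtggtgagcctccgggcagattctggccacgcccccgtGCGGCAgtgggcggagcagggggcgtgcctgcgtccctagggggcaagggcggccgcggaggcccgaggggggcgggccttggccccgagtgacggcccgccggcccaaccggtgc
Plagl1 promoter: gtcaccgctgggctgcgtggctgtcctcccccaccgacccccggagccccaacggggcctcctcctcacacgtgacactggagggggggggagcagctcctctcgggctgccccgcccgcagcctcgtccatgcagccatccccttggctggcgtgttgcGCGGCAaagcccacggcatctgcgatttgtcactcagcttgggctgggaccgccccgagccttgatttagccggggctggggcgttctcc

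A match is only a run of letters in this window, and neither binding nor methylation was measured. Beside Mest and Plagl1 (above), Mcts2, an intronless gene inside H13, had a difference of 0.03 ± 0.06 and Copg2, a coatomer subunit next to Mest, of 0.01 ± 0.06. The windows of Mest and Copg2 both lie on chromosome 6, and for both genes the array numbered 1 was the highest of each cavity. For Copg2 these were 10.90 in narrow 1 and 10.88 in wide 1, and for Mcts2 they were 10.10 in each.

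The other members had small differences as well. Nnat, a small protein of the endoplasmic reticulum membrane, gave 9.12, 9.12 and 8.92 in narrow and 9.15, 9.25 and 8.96 in wide pools. Number 3 was lowest in both cavities, and narrow lay below wide in 3 of 3 pairs, with a mean difference of -0.07 and an interval from -0.26 to 0.13. Impact, a regulator of the eIF2 kinase Gcn2, gave 10.34, 10.31 and 10.36 in narrow and 10.30, 10.31 and 10.24 in wide pools, which overlapped. Nap1l5, an intronless gene of the nucleosome assembly family and a dim signal, gave 6.43, 6.48 and 6.40 in narrow and 6.44, 6.48 and 6.52 in wide pools. Its difference was -0.04 ± 0.04. Sgce, a sarcoglycan next to Peg10, had a difference of 0.01 ± 0.06, and Asb4, an ankyrin repeat protein of the same cluster, of 0.05 ± 0.07.

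The 31 imprinted members varied more between pools of the same cavity than most genes. This was not seen over 43 further imprinted genes, described below, whose median residual SD was 0.055, under that of all genes. For the 31 members the median residual SD was 0.091, against 0.067 for all genes, and it lay above the median of all genes for 22 of 31. It was above the 90th percentile for 6: Meg3, Ddc, Rtl1, Nnat, Cdkn1c and Airn. For 23 of 31 genes, or 74.2%, the gap between the arrays numbered 1 and the rest was larger than the gap between the cavities, beside the 66.4% of all genes given above. The direction of that gap was not shared: Meg3, Ndn and Mest were higher in the arrays numbered 1, and Cdkn1c, Dlk1 and Igf2r were lower.

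Genes that act in setting, keeping or removing imprints were measured in full, 31 of 31 listed. With limma 0 passed the adjusted threshold, and at an unadjusted p under 0.05 there were 0 higher and 1 of 31 lower, against 1.68% and 1.72% of all genes. Of their differences 17 were positive, with a median of 0.0066. The 1 lower was Ctcfl, a germ cell relative of the insulator protein Ctcf, at 6.92, 6.90 and 6.82 in narrow and 6.94, 7.02 and 7.05 in wide pools (limma, unadjusted p = 0.0329, adjusted p = 1.00). All narrow pools lay below all wide pools for Ctcfl. Dnmt3l, the partner of the enzymes that set methylation in the germ line, had a difference of -0.08 ± 0.04, the egg protein Nlrp5 of 0.13 ± 0.07 and the histone demethylase Kdm1b of 0.05 ± 0.04. In the core of the machinery, Trim28 differed by 0.04 ± 0.04, Dnmt1 by -0.03 ± 0.04 and Uhrf1 by 0.01 ± 0.04. Larger in size were the differences of Zfp57, -0.11 ± 0.09 (limma, unadjusted p = 0.260), and Dppa3, 0.12 ± 0.09 (limma, unadjusted p = 0.205). Dppa3 protects methylation in the early embryo.

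A further list of genes reported as imprinted in some tissue also held no gene that passed. Of 50 listed, 43 were measured, 0 passed the adjusted threshold in limma, and the median difference was -0.00006 with 21 positive. At an unadjusted p under 0.05 limma gave 0 higher and 2 of 43 lower, against 1.68% and 1.72% of all genes. With the replicate block 0 were higher and 4 lower (Dlx5, Pon2, Blcap and Xist), against 3.54% and 3.72% of all genes, and again 0 passed after adjustment. The first of these was Dlx5, a homeobox gene near Asb4, with 7.48, 7.50 and 7.48 in narrow and 7.65, 7.62 and 7.58 in wide pools, a difference of -0.13 ± 0.04 (limma, unadjusted p = 0.0114, adjusted p = 1.00). The other was Pon2, an antioxidant enzyme of the same chromosomal stretch, with 8.48, 8.44 and 8.54 in narrow and 8.56, 8.61 and 8.65 in wide pools, a difference of -0.12 ± 0.05 (limma, unadjusted p = 0.0282, adjusted p = 1.00). For both genes all narrow pools lay below all wide pools. The calcitonin receptor Calcr and the tyrosine hydroxylase Th each had a difference of 0.08 ± 0.04.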

How the data were processed

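The deposited values, a single table of log2 signals, were used as given. That the scale is log2 was read from their range, 4.33 to 14.31; the sources used here do not say what the authors did before deposit (background correction, summarization, normalization, software). The near-equal array medians leave any change in total RNA per embryo out of reach. Features were named through the platform annotation: of 28853, 21789 name 1 gene, 1621 several and 5443 none, and per gene the feature with the highest mean was kept. The build of the array's design is not given, so array positions are not printed.

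Narrow and wide pools (3 each, called biological replicates in the design text) were compared for every gene with limma 3.58.1 (lmFit, eBayes, default settings) in R 4.3.3, with Benjamini-Hochberg adjustment over 19938 genes and no filter. The p-values measure spread between pools of embryos. An exact permutation test of 3 against 3 cannot go below 0.1. The number of arrays limits the precision. The code was tested on simulated data with known changes.

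Deviations from the group means correlated at 0.516 between narrow 1 and wide 1, at 0.176 between the arrays numbered 2 and at 0.272 between those numbered 3. All 3 lay above 0.1, so an additional limma fit allowed for pairing through a block for the replicate number. The main fit did not use this pairing. Unless a block is named, the p-values, intervals and fold bounds given come from the main fit. What a number stands for is not given in the labels.

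The 37 genes and the other lists were chosen with earlier results of these data known. Every measured gene is named. Values in every array are given for the 12 with the smallest p and for fixed well-known genes, and 4 genes are named from each other list, plus fixed ones. The genes between Dlk1 and Dio3 and between H19 and Osbpl5, and Xist, were added after values were seen. Promoter and microRNA sequences come from RefSeq (GRCm38.p6).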

Additional observations from a re-analysis of the deposited data

How the results depend on the processing

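In limma and in the test per gene, 0 of 31 imprinted genes passed the adjusted threshold under any alternative run, all with adjusted p of 0.674 or more. The count at an unadjusted p under 0.05, 1 higher and 0 lower, was 2 higher and 1 lower with the replicate block, 2 higher with quantile normalization, 2 with median centring and 0 with a test per gene with unequal variances, and 0 to 2 when each pool was left out in turn. The members' median of 0.0262 ran from 0.0104 to 0.0562 when each pool was left out. Over all genes the 335 higher and 343 lower became 705 and 741 with the replicate block. With quantile normalization 412 of all genes were higher and 330 lower, and with median centring 480 and 275. The higher count over all genes was 506 with the arrays numbered 2 and 3 only and 234 to 642 when each pool was left out. With unequal variances 251 genes were higher and 226 lower. Among genes above the median signal only, a fit over fewer genes, 254 were higher and 130 lower. The block changed no adjusted call. Of 455 values of single members under alternatives, 424 kept their sign and 31 did not, in 17 members whose main differences were at most 0.0836 in size. The values come with no measure of background, so how far dim signals such as Nap1l5 and Mkrn3 lie above it is not known.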

Other observations

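In the stretch from H19 to Osbpl5 the largest difference lay outside the 31 genes, at Ascl2, named after its values were seen, a transcription factor that trophoblast needs and that is active on the maternal copy. It gave 9.83, 10.09 and 9.97 in narrow and 9.89, 9.46 and 9.90 in wide pools, a difference of 0.21 ± 0.12 (limma, unadjusted p = 0.115, adjusted p = 1.00). Wide 2 was low for Ascl2, as it was for Phlda2, and was the lowest array for 8 of the 21 measured genes of that stretch.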
